A study of Mus musculus with 12 samples.

Results

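The nuclear-encoded genes of the mitochondrial respiratory chain were taken from the table by symbol, as the rows that start with Nduf, Uqcr, Cox4, Cox5, Cox6, Cox7, Cox8 or Atp5, or are Sdha, Sdhb, Sdhc or Sdhd. These were 92 of 24421 symbols. The cells were RAW264.7, a mouse macrophage line of the BALB/c strain, either wild type (WT) or knocked out (KO) for Parp14, an ADP-ribosyltransferase. There were 6 groups of 2 RNA-seq libraries. Untreated WT, WT with LPS for 2 h, WT with a Jak kinase inhibitor, WT with LPS and the inhibitor, untreated KO and KO with LPS made up the groups. LPS, or lipopolysaccharide, is a bacterial cell wall component sensed by Toll-like receptor 4, and Jak kinases carry the signal of interferon receptors. How many KO clones were used, which inhibitor it was and at what dose are not given in these sources. No label states that the 2 libraries of a group came from different cultures, and the spread behind the p-values may thus be technical.

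The respiratory chain passes electrons from NADH and succinate to oxygen and pumps protons across the inner mitochondrial membrane. Complex I (Nduf genes) takes electrons from NADH, and complex II (Sdh genes), which is also succinate dehydrogenase of the citric acid cycle, takes them from succinate. Complex III (Uqcr genes) hands them to cytochrome c, complex IV (Cox genes) reduces oxygen, and ATP synthase (Atp5 genes) uses the proton gradient to make ATP. Macrophages exposed to LPS are known to lean on glycolysis and to make itaconate, an inhibitor of succinate dehydrogenase.

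Of the 92 genes, 85 had at least 1 CPM (counts of a gene scaled to the usual fixed number of reads in genes) in at least 2 libraries and were tested. They comprised 35 of 36 complex I subunits, all 7 complex I assembly factors, all 4 genes of complex II, all 8 of complex III, 14 of 20 of complex IV and all 15 of ATP synthase. These totals cover only genes with the prefixes. Cyc1, the cytochrome c1 of complex III, lacks them and was counted with a list further below. Atp5s and Atp5sl share the prefix but are no subunits of the enzyme, and are given apart. Ndufa4 and Ndufa4l2 were counted with complex IV, where their proteins sit. The 7 genes that did not pass included isoforms known from other tissues. Cox4i2, of lung, had 80 reads over all 12 libraries, Cox6b2, of testis, had 5, and the hypoxia-linked Ndufa4l2 had 20. The testis genes Cox7b2 and Cox8c and the muscle gene Cox8b had 0 reads, which allows up to 3 reads in each library. Ndufs5, a complex I subunit, was also listed at 0 reads in every library. Of the 50-base words in its transcripts 21.7% also occurred in 1 other gene, and how the counting treated them was not tested.

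Libraries held between 35940669 and 45662896 reads in genes, from 58.9 to 64.1% of counted alignments, while 28.6 to 34.9% had no unique position. Parp14 itself lay between 76.4 and 99.7 CPM in untreated WT and between 10.0 and 11.97 CPM in untreated KO libraries, and between 315 and 419 CPM in WT and between 34.9 and 40.5 CPM in KO libraries after LPS. Of 8 macrophage markers 7 had a mean of at least 1 CPM, with Mertk below it, and none of the lymphocyte, stromal, epithelial or endothelial markers did. Genes encoded by mitochondrial DNA had no row and were not analysed here.

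Promoter sequence was matched for 72 of the 85 tested genes, from RefSeq windows on build GRCm38.p6 that reach from 250 bases before to 50 bases after a start. The motif of NRF1, a factor known from genes of the respiratory chain, was searched on both strands, with any base allowed at its middle position. It occurred in windows of 18 genes (25% of 72), against 7.17% of coding genes with a window. CCGGAAG, the core bound by ETS factors such as GABP, occurred in 17 (23.6%, against 12.9%), and AANATGGC, the YY1 core, in 19 (26.4%, against 7.46%). CCGCCC, the SP box, occurred in 32 (44.4%, against 49.2%). The 72 genes had passed the filter on CPM, but the coding genes with a window were not filtered by level, so these shares compare unlike sets. A match is a description of the letters and not a binding site. The 140 bases before the outermost annotated start are shown for 3 genes of complex II, the complex with the largest share of its genes called lower after LPS when scaled by gene reads (0 were with the median of ratios), and for Atp5sl, the gene with the largest change, with matches to the NRF1 and ETS motifs in capitals. They run 5′ to 3′ on the strand of the gene, at chr13:74350281-74350420 (Sdha, minus strand), chr4:140961063-140961202 (Sdhb, plus strand), chr9:50603850-50603989 (Sdhd, minus strand) and chr7:25619274-25619413 (Atp5sl, plus strand, listed by RefSeq as Dmac2).
Sdha: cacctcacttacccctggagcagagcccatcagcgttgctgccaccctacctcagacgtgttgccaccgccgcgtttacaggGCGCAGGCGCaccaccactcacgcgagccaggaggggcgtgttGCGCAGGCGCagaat
Sdhb: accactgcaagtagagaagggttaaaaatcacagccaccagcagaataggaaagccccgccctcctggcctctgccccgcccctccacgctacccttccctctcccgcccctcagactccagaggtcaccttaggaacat
Sdhd: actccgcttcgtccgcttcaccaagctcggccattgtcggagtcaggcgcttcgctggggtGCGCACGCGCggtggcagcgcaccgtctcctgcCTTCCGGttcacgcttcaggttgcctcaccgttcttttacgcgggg
Atp5sl: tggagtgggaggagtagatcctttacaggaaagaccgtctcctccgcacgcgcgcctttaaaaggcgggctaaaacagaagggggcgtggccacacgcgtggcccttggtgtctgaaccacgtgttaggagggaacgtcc
The stretch of Sdha held 2 NRF1 matches, and that of Sdhd held 1 NRF1 and 1 ETS match, the latter on the reverse strand. The stretches of Sdhb and Atp5sl held no match to the NRF1, ETS or YY1 letters. SP boxes were not marked, and the stretch of Sdhb holds CCGCCC. The full windows reach further, and there Sdhb had an ETS and an SP match and Atp5sl a YY1 match. No window was given for Sdhc.

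In untreated WT cells the members together made up 1.36% ± 0.0456 of gene reads, and with LPS 1.24% ± 0.0343 (SD, n = 2). In KO cells the shares were 1.32% ± 0.0748 and 1.21% ± 0.059. ATP synthase held the largest part, 0.627% ± 0.0102 in untreated WT cells, ahead of complex I with 0.274% ± 0.0167. Per kilobase of transcript, the mean level over all libraries was highest for Atp5b, the catalytic beta subunit, with 917 CPM per kb. Uqcrh, the hinge protein of complex III, followed with 559, and Cox4i1, the ubiquitous form of Cox4, led complex IV with 525. Sdhd led complex II with 208 and Ndufa2 led complex I with 170 CPM per kb. The assembly factors were lower, from 5.84 to 20.04 CPM per kb, with Ndufaf2 on top. Of the 50-base words of Ndufaf2, 64.1% occurred in other genes as well, so its level is uncertain.

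LPS in WT cells was compared first, to see what 2 h of the stimulus did to the chain. As a share of gene reads 18 of the 85 genes (21.2%) fell and 0 rose, while the median of all genes was also below 0, and 9 of the 18 turned above 0 when libraries were rescaled by the median of ratios. Of all 10899 tested genes 53.6% were called lower and 13.7% higher (limma, adjusted p under 0.05). The median log2 change was -0.15 over the 85 genes and -0.30 over all genes, and 76 of the 85 lay above the latter. The members also spread less: their middle 50% lay between -0.25 and -0.10, that of all genes between -0.66 and 0.01, and 1 member (Atp5sl) changed 2-fold or more, against 15.9% of all genes. Rescaling by the median of ratios moved the median of all genes to -0.04 and that of the members to 0.13, with 7 members higher and 2 lower (all genes 26.4% and 32.5%), and edgeR called 10 higher and 2 lower (28% and 31.4%). With the replicate number as a block 51 members were lower and 1 higher (all genes 62.8% and 18%). Without WT_UT replicate 1 the count of lower members was 10, and leaving out 1 library of the 2 groups gave member medians from -0.23 to -0.10.

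Atp5sl, known as Dmac2, an assembly factor for the membrane arm of complex I (GRCm38 chromosome 7, 25619414 to 25625551, plus strand; all positions are on this build), fell most. It stood at 21.9 and 19.7 CPM in untreated WT libraries and at 8.78 and 9.51 CPM after LPS. The groups were far apart, and the level after LPS was 46.6% of that before on the scale of log2(CPM + 1), a change of -1.10 (SE 0.082, adjusted p = 2.03e-06). The same was seen in KO cells, from 20.1 in both libraries to 9.71 and 8.99 CPM (-1.03, adjusted p = 3.14e-06), and under the inhibitor, from 21.7 and 20.8 to 9.60 and 10.4 CPM (-1.02, adjusted p = 3.58e-06). Atp5s, a coupling factor of ATP synthase (chromosome 12, 69724950 to 69744660, plus strand), fell from 5.73 and 4.90 to 3.04 and 2.51 CPM in WT cells, a change of -0.74 (SE 0.123, adjusted p = 0.000436). It changed by -0.69 in KO cells (adjusted p = 0.000683) and by -0.67 under the inhibitor (adjusted p = 0.000895). Atp5sl and Atp5s were the only 2 members lower in all 3 LPS comparisons after rescaling by the median of ratios too, at -0.83 and -0.51 in WT cells, and by edgeR.

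Of the 4 genes of complex II 3 were called lower as a share of gene reads, but with the median of ratios 0 were called and Sdhc and Sdhd turned above 0. The libraries of all 4 did not overlap, as was the case for 64.5% of all genes in this direction. Sdha, the flavoprotein that holds the succinate site (chromosome 13, 74322254 to 74350280, minus strand), stood at 436 and 441 CPM in untreated WT libraries and at 346 and 355 CPM after LPS. The replicates differed by far less than the groups, and the change was -0.32 (SE 0.0507, adjusted p = 0.00031). Sdhb, the iron-sulfur subunit (chromosome 4, 140961203 to 140979193, plus strand), went from 201 and 178 to 146 and 155 CPM, a change of -0.33 (SE 0.0793, adjusted p = 0.00433). Sdhc, a membrane anchor (chromosome 1, 171127165 to 171150603, minus strand), went from 156 and 149 to 129 and 136 CPM, a change of -0.21 (SE 0.0531, adjusted p = 0.00652), and was not called without WT_UT replicate 1 (adjusted p = 0.0615). Sdhd, the other anchor (chromosome 9, 50596357 to 50603812, minus strand), was at 251 and 252 and then at 236 and 210 CPM, with a change of -0.17 that was not called (adjusted p = 0.128). With the median of ratios the 4 values were -0.03 for Sdha, -0.04 for Sdhb, 0.08 for Sdhc and 0.11 for Sdhd. Of the 4 genes 2 lay above the median of all genes and 2 below it.

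In complex I, 10 of 35 subunits fell as a share of gene reads and 0 rose (median -0.17), whereas 2 were higher and 0 lower after rescaling by the median of ratios. Ndufs7, which carries an iron-sulfur cluster next to the quinone site (chromosome 10, 80249121 to 80256794, plus strand), went from 95.6 and 86.0 to 62.3 and 67.9 CPM, a change of -0.47 (SE 0.0913, adjusted p = 0.00117). Ndufv3, an accessory subunit of the NADH module (chromosome 17, 31520115 to 31531331, plus strand), went from 43.0 and 37.7 to 27.7 and 32.2 CPM, a change of -0.42 (SE 0.0946, adjusted p = 0.00305). In both genes the libraries with LPS lay below those without. The other called subunits included Ndufa13, Ndufa8, Ndufb11, Ndufs8, Ndufa11, the NADH-binding Ndufv1 and Ndufb10, with changes from -0.38 to -0.23. For Ndufa13 28.5% of the 50-base words of its transcripts also occurred in 2 other genes, and for Ndufb11 17.5%, so their counts are uncertain. Of these 10 subunits none was called after rescaling by the median of ratios, where Ndufs7 was at -0.19 (adjusted p = 0.092).

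Among the 7 assembly factors Ndufaf7, a methyltransferase needed to build complex I (chromosome 17, 78937136 to 78948052, plus strand), was called lower. It was at 14.8 and 16.0 CPM in untreated WT libraries and at 10.6 and 11.97 CPM after LPS, a change of -0.41 (SE 0.0909, adjusted p = 0.00254), or -0.15 and not called after rescaling (adjusted p = 0.191). Ndufaf1, which helps to build the membrane arm, was the 1 member of the chain whose WT libraries with LPS, at 25.7 and 23.4 CPM, all lay above those without, at 22.3 and 20.6 CPM, as was seen in 19% of all genes. Its change of 0.18 was not called (adjusted p = 0.116), but was called with the replicate block (adjusted p = 0.0134) and, at 0.46, after rescaling (adjusted p = 0.00155). In KO cells Ndufaf1 was at 22.1 and 19.998 CPM untreated and at 21.1 and 20.7 CPM after LPS, so the groups overlapped there, and its change of -0.01 was not called, though it was at 0.26 after rescaling (adjusted p = 0.0325).

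Complex III, complex IV and ATP synthase had fewer calls. Of 8 complex III genes 1 fell, the core protein Uqcrc1 (-0.20, adjusted p = 0.0132), which was at 0.09 and not called after rescaling. Of 14 complex IV genes limma called 0, with 1 at an unadjusted p under 0.05, while edgeR called 2 higher and the replicate block 5 lower. ATP synthase had 1 of 15 called lower, Atp5g1 of the c ring (-0.20, adjusted p = 0.0271), again above 0 after rescaling, at 0.09. The most abundant member, Atp5b, held its share: its libraries lay at 1765 and 1816 CPM untreated and at 1801 and 1771 CPM after LPS, so that the groups overlapped. After rescaling Atp5b was called higher, at 0.28 (adjusted p = 0.00306). Role by role the median changes were -0.26 for complex II, -0.27 for the assembly factors, -0.17 for complex I, -0.14 for ATP synthase, -0.10 for complex IV and -0.07 for complex III. These lay 0.04, 0.03, 0.13, 0.16, 0.20 and 0.23 above the median of all genes, and with the median of ratios the role medians were 0.02 for complex II, 0.11 for complex I, 0.15 for ATP synthase, 0.18 for complex IV and 0.22 for complex III.

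**Figure D1:**
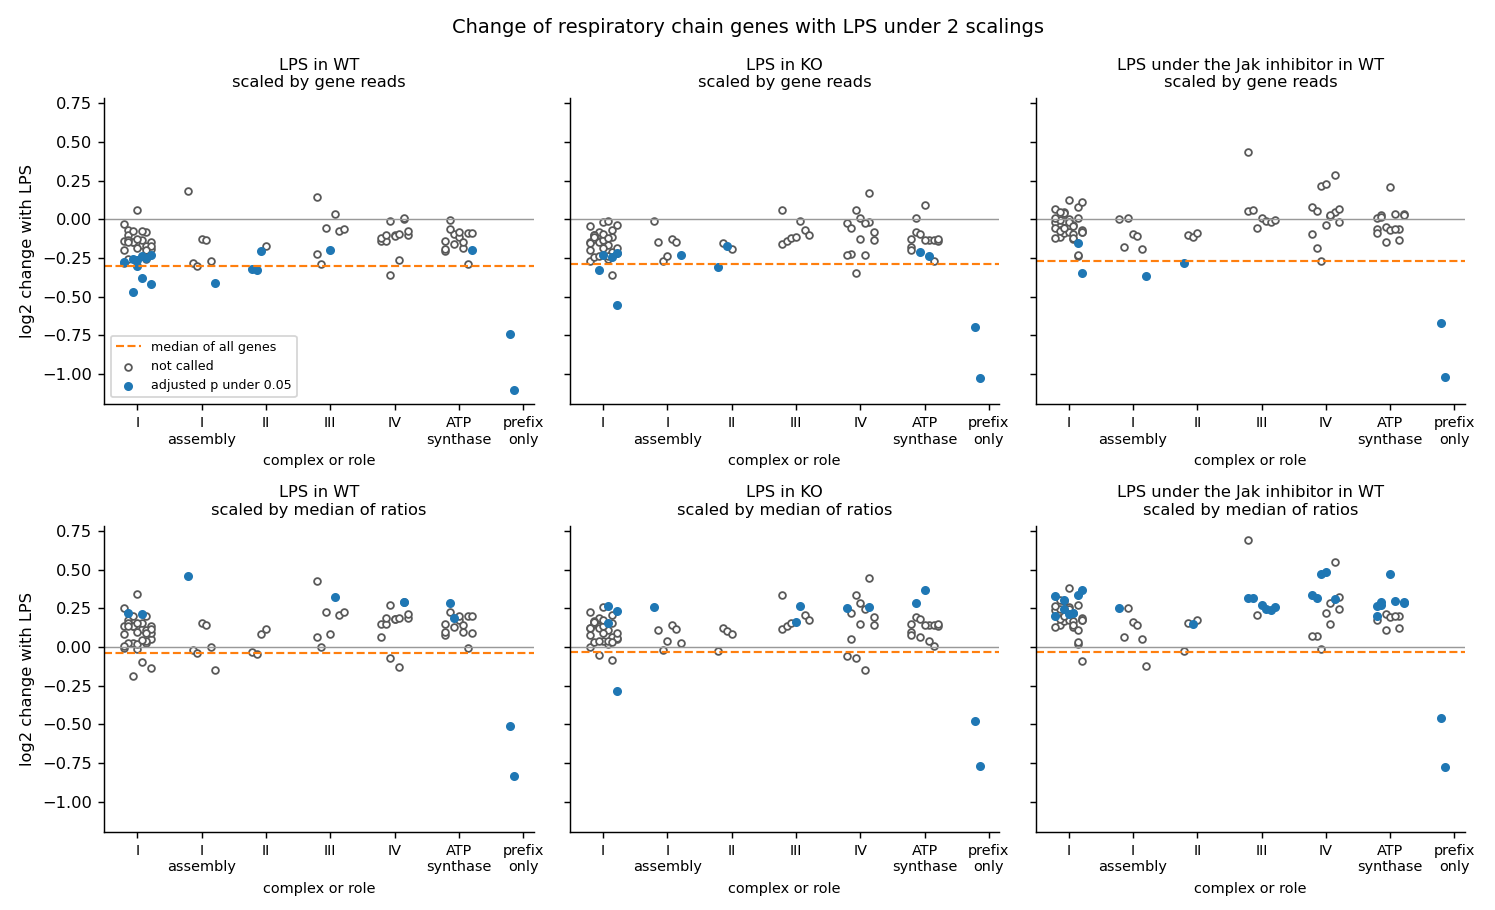
Each point is 1 tested gene, placed by complex or role on the horizontal axis and by its log2 change with LPS on the vertical axis; filled points had a limma adjusted p under 0.05 and the dashed line is the median of all 10899 genes. In the upper row, scaled by gene reads, most points lie between 0 and the dashed line. In the lower row, scaled by the median of ratios, most lie above 0. Atp5s and Atp5sl, labelled prefix only because they are no subunits of the enzyme, stay lowest in all panels.

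In KO cells the same comparison called 12 of 85 genes lower (14.1%) and 0 higher, against 52.7% and 13.9% of all genes, with a median of -0.14 beside -0.29, which turned to 0.13 beside -0.03 with the median of ratios. After rescaling by the median of ratios 10 were higher and 3 lower (all genes 26.7% and 33.1%), and by edgeR 11 and 3 (27.7% and 32.1%). The replicate block gave 0 higher and 51 lower (all genes 18.3% and 62.2%). Without KO_UT replicate 1 or KO_LPS replicate 2 the count of lower members was 7, and without KO_LPS replicate 1 it was 8. The member median was -0.07 without KO_UT replicate 1, -0.08 without KO_LPS replicate 2, -0.22 without KO_LPS replicate 1 and -0.23 without KO_UT replicate 2. Ndufv3 fell from 39.0 in both untreated KO libraries to 26.1 and 26.4 CPM, a change of -0.55 (SE 0.0946, adjusted p = 0.000531), and was the 1 subunit of a complex that stayed lower after rescaling, at -0.29 (adjusted p = 0.0249). Sdha went from 383 and 390 to 308 and 317 CPM (-0.31, adjusted p = 0.000435), and Ndufs7 from 80.8 and 79.3 to 65.7 and 61.7 CPM (-0.33, adjusted p = 0.0101). The Ndufs7 call was lost without KO_LPS replicate 2 (adjusted p = 0.0643), and both values lay nearer to 0 after rescaling, at -0.03 and -0.05. In complex II Sdhc was called too (-0.17, adjusted p = 0.0159), which turned to 0.10 after rescaling, but not without KO_UT replicate 1 (adjusted p = 0.0859) or KO_LPS replicate 1 (adjusted p = 0.072). Sdhb, at 164 and 156 and then at 146 and 142 CPM, and Sdhd, at 313 and 295 and then at 278 and 255 CPM, did not overlap between the groups but were not called (adjusted p = 0.115 and 0.0965). In this direction the libraries of 37 of the 85 members did not overlap, and the share of all genes was not taken. The WT and KO comparisons shared no library. Called lower in both were 10 members, 55.6% of those in WT and 83.3% of those in KO cells, while of all genes lower in WT 91.5% were also lower in KO cells, and 93.0% the other way round. The difference between the LPS changes of KO and WT cells was itself tested, and limma called 0 of 85 genes in either direction (all genes 0.128% higher and 0.284% lower), with 0 at an unadjusted p under 0.05 and 0 by edgeR (all genes 0.0367% higher and 0.0551% lower). With the replicate block 0 were called as well (1.67% and 2.12%).

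Under the Jak inhibitor LPS lowered 6 of 85 genes (7.06%) and raised 0, against 50.8% and 13.5% of all genes. The median was -0.04 beside -0.27, and 80 of 85 members lay above the median of all genes. The sign of the member median rested on single libraries, at 0.06 without WT_JAKi replicate 1 and 0.07 without WT_LPS_JAKi replicate 2, but -0.14 without WT_JAKi replicate 2 and -0.15 without WT_LPS_JAKi replicate 1. Of the 3 LPS comparisons its counts moved most with the scaling, since 29 members were higher and 2 lower after rescaling by the median of ratios (all genes 26.4% and 32.5%), and 32 and 2 by edgeR (28% and 30.6%). With the replicate block 5 were higher and 15 lower (18.4% and 59.7%), and without WT_LPS_JAKi replicate 2 the fit without a block called 3 higher. The lower members included Atp5sl, Atp5s, Ndufaf7, Ndufv3 and Sdha, and all 6 were also lower in WT and KO cells without it, as were 89.1% of all genes lower under the inhibitor. Sdha stood at 429 and 424 CPM with the inhibitor alone and at 351 and 349 CPM with LPS added, a change of -0.29 (SE 0.0507, adjusted p = 0.00072), or -0.02 after rescaling. Ndufv3 stood at 40.6 and 39.6 and then at 33.6 and 29.3 CPM, a change of -0.35 (adjusted p = 0.0091) that was not called without WT_LPS_JAKi replicate 2 (adjusted p = 0.0737). In both genes the libraries with LPS lay below those without. Sdhb, at 191 and 175 and then at 178 and 163 CPM, and Sdhd, at 270 and 237 and then at 256 and 222 CPM, overlapped between these groups.

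**Figure D2:**
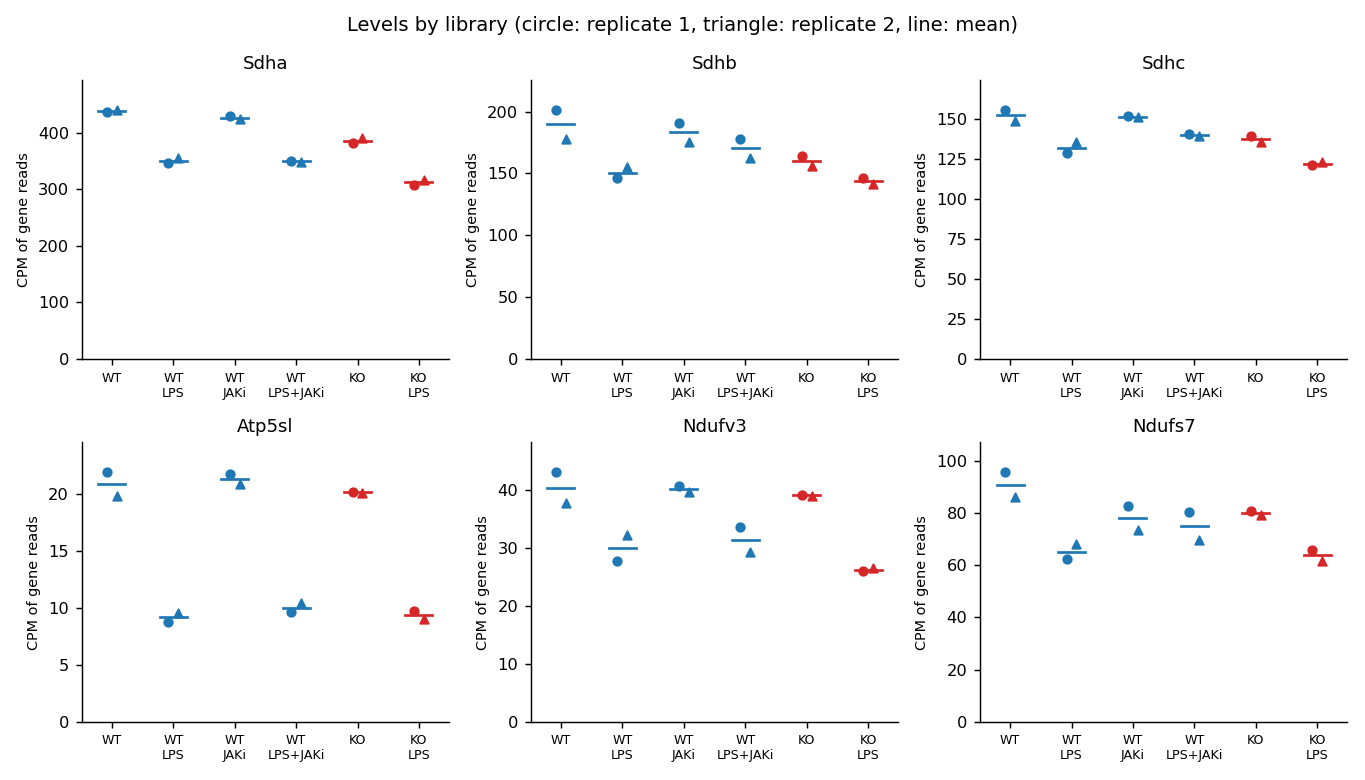
Level of 6 genes in each of the 12 libraries, in CPM of gene reads on an axis from 0, by group; circles are replicate 1, triangles replicate 2, lines the mean of the 2, blue WT and red KO. Atp5sl drops from about 20 to about 10 CPM in all 3 pairs of groups, and the replicates of Sdha lie close together.

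The inhibitor alone changed no member that could be called. In untreated WT cells limma called 0 of 85, with 1 at an unadjusted p under 0.05 and 0 by edgeR, and 0% of all genes were called. The replicate block called 0 members too (all genes 0.0275% higher and 0.00918% lower). After LPS limma also called 0, with 7 at an unadjusted p under 0.05 (all genes 0.0734% higher and 1.04% lower), and edgeR called 0 (0.0642% and 1.06%), while the replicate block called 8 higher (all genes 1.68%) and 0 lower (2.41%). In that comparison 80 of 85 members lay above 0, with a median of 0.12 beside 0.02 for all genes. Without WT_LPS_JAKi replicate 1 it was 47 of 85 with a median of 0.01, beside 0.02, and without WT_LPS_JAKi replicate 2 the median was 0.25. The 8 genes under the block were Ndufa2, Cox6a1, Uqcr11, Uqcr10, Atp5g2, Ndufb11, Cox6c and Ndufb8, small subunits with changes from 0.19 to 0.28. Of the 50-base words of Atp5g2 38.3% also occurred in other genes, and of those of Ndufb11 17.5%, so their counts are uncertain. Ndufa2 stood at 88.0 and 78.9 CPM with LPS and at 111 and 92.4 CPM with LPS and the inhibitor, so that the groups did not overlap. This held for 34 of the 85 members in this direction, and the share of all genes was not taken. The difference between the LPS changes with and without the inhibitor was called by limma for 0 members (all genes 0.0184% higher and 0.569% lower), with 8 at an unadjusted p under 0.05 and 0 by edgeR (all genes 0.0184% and 0.505%). With the block it was called higher for 4, Ndufs7 (0.42, adjusted p = 0.0259), Uqcr11 (0.35), Ndufa2 (0.34) and Uqcr10 (0.28), against 1.22% of all genes, and lower for 0, against 1.7%. Ndufs7 stood at 95.6 and 86.0 CPM untreated and at 82.6 and 73.7 CPM with the inhibitor alone. With LPS it stood at 62.3 and 67.9 CPM, and with LPS and the inhibitor at 80.5 and 69.8 CPM. Its value of 0.42 thus draws on both pairs of groups.

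The length of the transcript and the replicate number moved with these values. Replicate 1 was higher than replicate 2 on average over the 6 groups in 80 of 85 members, and in all 6 groups in 53, with a median difference of 0.15 on the log2 scale, against 0.01 over all genes, of which 52.0% lay above 0. The difference was 0.62 in Uqcrq, a small subunit of complex III, 0.40 in Ndufa12 and -0.02 in Sdha. Over the 84 members with an annotated length it had a Spearman rho of -0.41 with transcript length, and over all genes -0.32. The change with LPS under the inhibitor had a rho of -0.38 with length over the members and -0.21 over all genes. The change with the inhibitor after LPS had a rho of -0.41 with length over the members and -0.40 over all genes, and that with LPS in WT cells had one of -0.08 and -0.12. These are descriptions across genes that share their libraries, and the part of length or replicate number in the results was not tested.

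**Figure D3:**
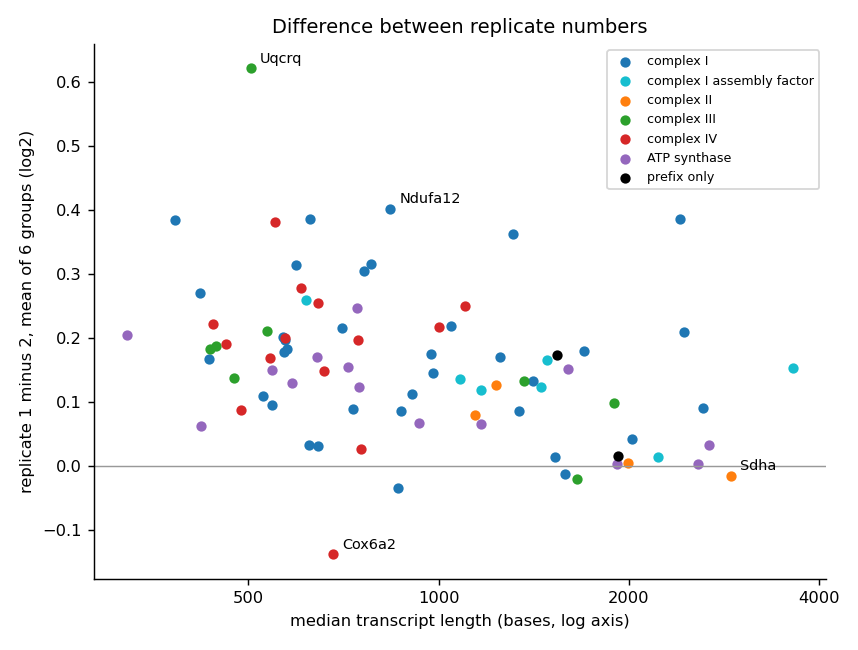
Each point is 1 of 84 members, with the median length of its transcripts in bases on a log axis against the log2 difference of replicate 1 minus replicate 2, averaged over the 6 groups, coloured by role. Most points lie above 0, with Uqcrq highest at 0.62, while Sdha, 1 of the longest, lies at -0.02.

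The next question was whether the chain differed between the KO and WT lines. Untreated, 1 of 85 members was lower (1.18%) and 0 higher, against 5.37% and 4.31% of all genes, and after LPS 1 was lower and 0 higher, against 7.66% and 6.19%. At an unadjusted p under 0.05 there were 13 and 7 members, a threshold at which the share of all genes was not taken. Likewise, edgeR called 0 higher and 1 lower in each (all genes 4.39% and 4.86% untreated, 6.15% and 7.72% after LPS). The called gene was Atp5c1 in both, the gamma subunit in the rotating stalk of ATP synthase (chromosome 2, 10056016 to 10080510, minus strand). It stood at 324 and 320 CPM in untreated WT and at 252 and 242 CPM in untreated KO libraries, a change of -0.38 (SE 0.0636, adjusted p = 0.00443). After LPS it stood at 311 and 291 CPM in WT and at 214 and 212 CPM in KO libraries, a change of -0.50 (adjusted p = 0.000773). All KO libraries lay below all 8 WT libraries, the lowest of which was at 291 CPM. With the median of ratios the values were -0.37 and -0.50.

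With the replicate block 4 members were higher and 10 lower in untreated KO cells (all genes 10.9% and 13.7%), and 9 higher and 7 lower after LPS (14.9% and 16.7%). With the deposited scaling 8 were lower untreated and 3 after LPS (all genes 9.76% and 10.3%). Complex II split under the block. Sdhd was higher, with 313 and 295 CPM in untreated KO libraries against 251 and 252 CPM in WT (0.27, adjusted p = 0.000837 with the block and 0.113 without). Sdha was lower, with 383 and 390 against 436 and 441 CPM (-0.18, adjusted p = 0.00284 with the block and 0.0523 without). Sdhb (-0.24) and Sdhc (-0.14) were lower with the block too, at adjusted p = 0.0042 and 0.0252. In all 4 genes the untreated KO and WT libraries did not overlap, which held for 21.4% of all genes upward and 26.6% downward. After LPS Sdhd (0.26) and Sdha (-0.17) were called with the block, at adjusted p = 0.00112 and 0.00415.

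Besides Sdhd, the members higher with the block in both conditions were Atp5l, the subunit g that sits where ATP synthase dimers meet (chromosome 9, 44912557 to 44920742, minus strand), Cox5a, a matrix-side subunit of complex IV (chromosome 9, 57521274 to 57532426, plus strand), and Uqcrq on chromosome 11. Atp5l stood at 236 and 223 CPM in untreated WT and at 307 and 269 CPM in untreated KO libraries (0.32, adjusted p = 0.00031 with the block and 0.0991 without). Cox5a stood at 207 and 178 CPM and at 272 and 228 CPM (0.37, adjusted p = 0.000149 with the block and 0.217 without). For both the KO libraries lay above the WT ones, also after LPS, where the changes were 0.28 and 0.29. Among the 85 members this held for 3 untreated and 8 after LPS. Uqcrq differed by 0.35 and 0.27, but its libraries overlapped, with 75.4 and 54.3 CPM in untreated WT and 94.1 and 70.7 CPM in untreated KO cells.

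**Figure D4:**
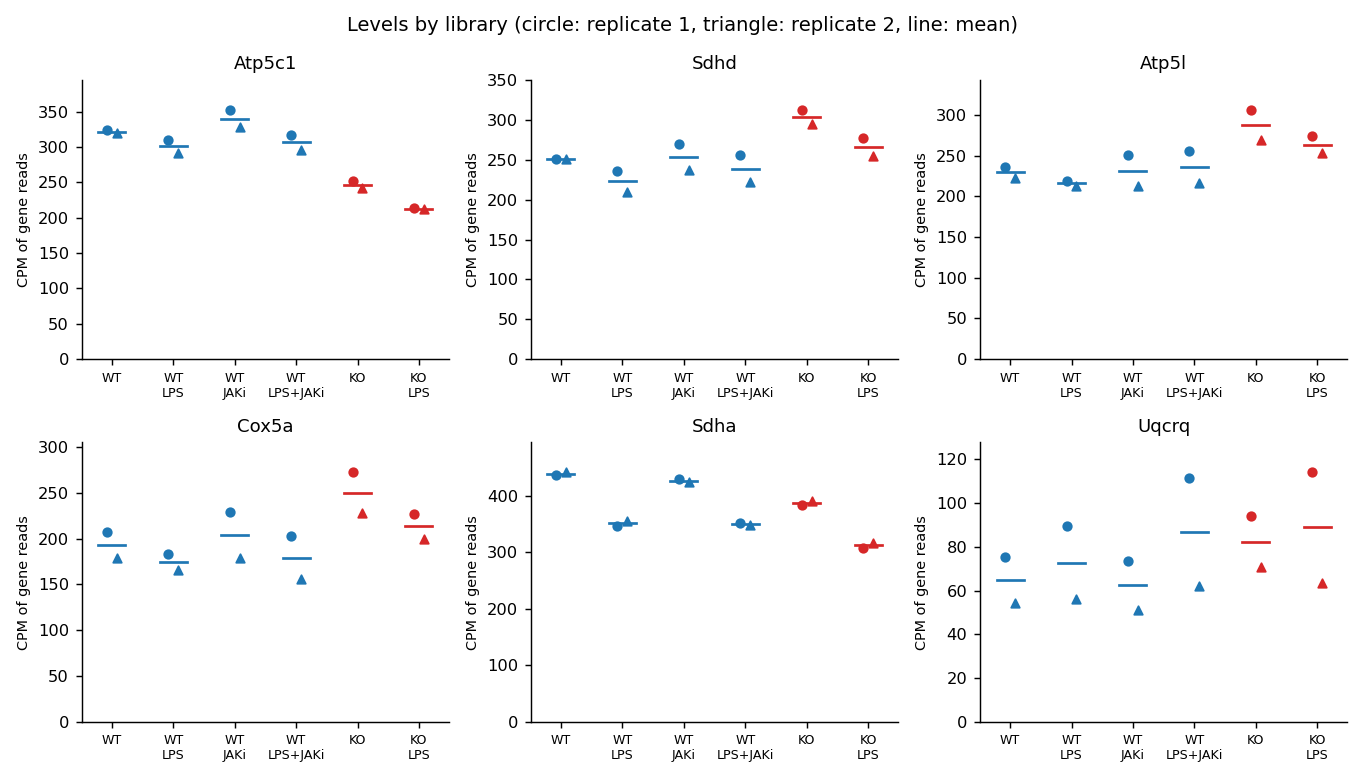
Level of 6 genes in each of the 12 libraries, in CPM of gene reads on an axis from 0, by group; circles are replicate 1, triangles replicate 2, lines the mean of the 2, blue WT and red KO. Atp5c1 is lower in all 4 KO libraries than in any WT library, Sdhd, Atp5l and Cox5a are higher in KO than in WT libraries of the same treatment, and the replicates of Uqcrq lie far apart.

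The 3 members Sdhd, Atp5l and Cox5a lay in the first 70 Mb of chromosome 9, and their neighbours differed between the lines in the same direction. The 327 other tested genes there had a median KO to WT change of 0.31 untreated and 0.29 after LPS, and 90.2% and 88.4% of them were above 0. The 278 other genes from 70 Mb on had medians of -0.01 and -0.03, and the members Cox7a2, Ndufaf3 and Uqcrc1 lay among them. Atp5c1 lay in the first 15 Mb of chromosome 2, where 36 other genes had medians of -0.28 and -0.29, with 86.1% and 80.6% below 0, while the 834 genes beyond had medians of -0.02 and -0.01. The limits of these segments were chosen after values had been seen, so these are descriptions with no test. Of 197 bins of 10 Mb with at least 20 genes, 8 had medians past 0.2 in the same direction in both conditions. Of these 6 were on chromosome 9, and the other 2 at 0 to 10 Mb of chromosome 2 and 150 to 160 Mb of chromosome 4. The shifted bin of chromosome 2 held 0 members. Atp5c1, which starts at 10056016, fell in the next bin, from 10 to 20 Mb. That bin had 24 genes with medians of -0.06 untreated and -0.11 after LPS, and was not past 0.2. The 2 comparisons shared no library. What underlies the shift of these segments was not tested. Of the 81 members outside them the fit without a block called 0 in either condition, with medians of -0.04 untreated and -0.02 after LPS. With the block 1 of them was higher and 9 lower untreated, and 6 and 6 after LPS. Over all 85 members the median lay between -0.10 and 0.04 untreated, and between -0.09 and 0.05 after LPS, when 1 library of the compared groups was left out.

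**Figure D5:**
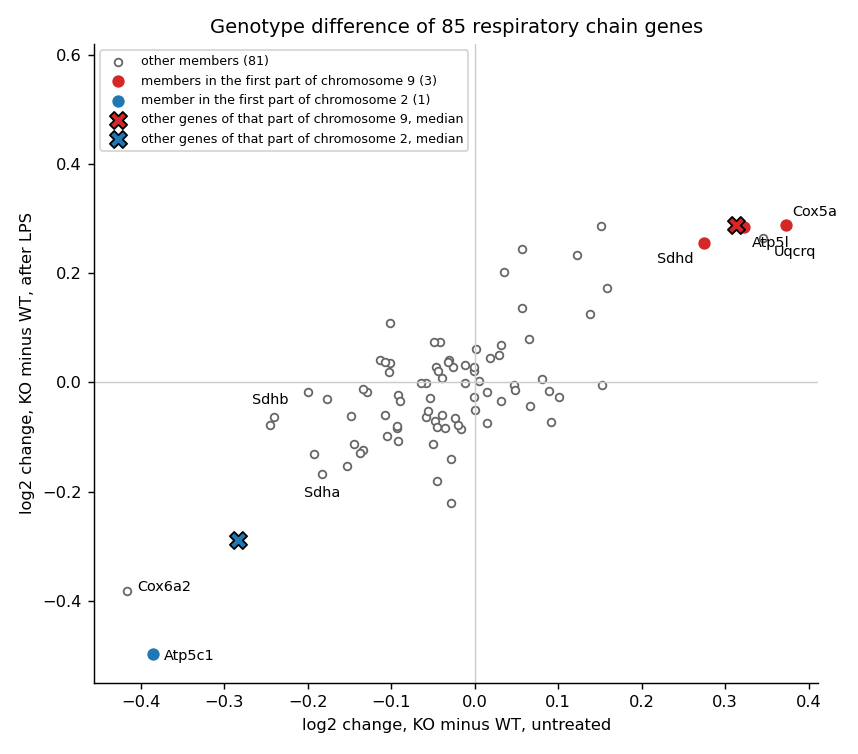
Each point is 1 of the 85 tested members, with its log2 change in KO against WT cells untreated on the horizontal and after LPS on the vertical axis; crosses are the medians of the other genes of the first part of chromosome 9 (red) and of chromosome 2 (blue). Sdhd, Atp5l and Cox5a lie beside the red cross at 0.31 and 0.29, Atp5c1 lies beyond the blue cross, and most other members lie near 0 on both axes.

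Genes that work with the chain were counted from lists, with the share of all genes called as above. Of 40 tested assembly factors that the prefixes do not cover, 1 rose and 27 fell in WT cells with LPS, and 1 and 28 in KO cells, with medians of -0.38 and -0.40, below those of all genes. With the median of ratios 4 rose and 13 fell in WT cells, and 5 and 16 in KO cells. Taco1, a translational activator for a mitochondrial-encoded complex IV subunit, changed by -1.09 in WT cells (adjusted p = 1.15e-05), and the membrane insertase gene Oxa1l by -0.91 (adjusted p = 3.15e-06). Ttc19, of complex III assembly, rose by 0.31 (adjusted p = 0.00331). The medians of this list stayed below that of all genes after rescaling, at -0.10 against -0.04 in WT cells. Another list held 17 genes for cytochrome c, cytochrome c1 (Cyc1, of complex III), electron transfer flavoprotein and coenzyme Q synthesis. Of these 1 rose and 9 fell in WT cells, and 1 and 8 in KO cells. Their medians of -0.16 and -0.15 turned to 0.13 and 0.12 with the median of ratios. There 4 rose and 2 fell in WT cells, and 4 and 3 in KO cells. Coq10b rose by 1.24 and its paralog Coq10a changed by -1.07, both coenzyme Q-binding proteins, and the synthesis gene Coq9 changed by -0.79. A further list was meant for ATP synthase genes named otherwise and held 4 genes. These were the inhibitor Atpif1, Usmg5, 2010107E04Rik and Minos1, the last of which is no subunit of the enzyme. In the 2 comparisons limma called 0 of the 4, and with the block 2 were lower in each.

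Of 16 tested transcription factors and coactivators of respiratory genes 1 rose and 10 fell in WT cells, and 2 and 9 in KO cells, and with the median of ratios 2 and 7, and 3 and 8. Ppargc1b, the coactivator PGC-1 beta, went from 29.1 and 31.3 to 12.2 and 12.7 CPM in WT cells (-1.21, adjusted p = 6.59e-06) and from 22.7 and 24.9 to 6.90 and 7.07 CPM in KO cells (-1.63, adjusted p = 9.14e-07). The libraries with and without LPS did not overlap in either line. Ppargc1a, the related coactivator PGC-1 alpha, had 6 reads over all libraries. Polrmt, the mitochondrial RNA polymerase, changed by -1.16 in WT cells, and Tfb1m, which modifies mitochondrial ribosomal RNA, by -1.18 in KO cells. Gabpb1, a subunit of the ETS factor GABP, rose by 0.31 and 0.22 in WT and KO cells.

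Of 17 citric acid cycle genes 0 rose and 7 fell in WT cells with LPS, and 0 and 8 in KO cells, with medians of -0.19 in both that turned to 0.10 and 0.08 with the median of ratios. There 3 rose and 0 fell in WT cells, and 4 and 1 in KO cells, while the replicate block gave 1 and 15, and 1 and 12. Pcx, pyruvate carboxylase, changed by -0.45 and -0.47 (-0.18 and -0.21 after rescaling), and Cs, citrate synthase, by -0.24 in WT cells, a change that stood at 0.05 after rescaling. Of 9 tested genes tied to respiration in LPS-treated macrophages 3 rose and 4 fell in WT cells, and 3 and 3 in KO cells, with 3 and 2 in both by the median of ratios. Irg1, which makes itaconate, was at 13.9 and 14.9 CPM untreated and at 3319 and 3296 CPM after LPS, and Sod2, the mitochondrial superoxide dismutase, rose by 1.98. Pdk1, a kinase that restrains pyruvate dehydrogenase, changed by -1.05 and the mitophagy receptor Bnip3 by -0.55. Of 77 genes of the mitochondrial ribosome 2 rose and 29 fell in WT cells, and 2 and 30 in KO cells, with medians of -0.16 and -0.19 that turned to 0.13 and 0.08 with the median of ratios. The share that fell, 37.7% in WT cells, stood beside 53.6% of all genes. With the median of ratios 27 rose and 12 fell in WT cells, and 22 and 12 in KO cells, and with the block 9 and 42, and 8 and 48. Mrpl39 rose by 0.44 and Mrps35 changed by -0.87 in WT cells.

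In the comparison of the lines without treatment, where 4.31% of all genes were higher, 2 mitochondrial ribosome genes were higher in KO cells, Mrpl20 (0.41, adjusted p = 0.0021) and Mrpl4 (0.35, adjusted p = 0.0216). Dlat, a subunit of the pyruvate dehydrogenase complex, was higher by 0.32 (adjusted p = 0.0238), and Uqcc2, an assembly factor of complex III, by 0.29 (adjusted p = 0.0467). Of these 4, Mrpl4 (chromosome 9, 21002738 to 21008839, plus strand) and Dlat (chromosome 9, 50634633 to 50659780, minus strand) lay in the first 70 Mb of chromosome 9, and Mrpl20 (chromosome 4, 155802878 to 155809975, plus strand) in the shifted bin of chromosome 4. Among citric acid cycle genes Idh3g (-0.28) and Idh3b (-0.22), subunits of isocitrate dehydrogenase, were lower in KO cells, beside 5.37% of all genes. Irg1 was lower too, with 10.4 and 11.8 CPM in untreated KO against 13.9 and 14.9 CPM in untreated WT libraries (-0.35, limma adjusted p = 0.0186). With the block 10.9% of all genes were higher and 13.7% lower. Beside this, 5 of the 77 ribosome genes were higher and 1 lower, and 4 of the 40 assembly factors higher and 2 lower. Of the 17 citric acid cycle genes 2 were higher and 5 lower with the block. After LPS limma called 1 of these 17 genes higher in KO cells and 0 lower, so Idh3g and Idh3b were not called there. Of the 40 assembly factors it called 0 higher and 2 lower, so Uqcc2 was not called higher there. Of all genes 6.19% were higher and 7.66% lower in that comparison.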

How the data were processed

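RNA-seq CPM values were deposited by the authors as 1 table; per the submitters' processing notes, TopHat2 2.1.0, HTSeq and edgeR were used with mm10/GRCm38, and strand handling is not stated in these sources. All values came out as whole reads within 0.02 of a read. The 5 summary lines were left out, 4 columns that match no sample were not used, and CPM were rescaled to gene reads. Genes that reached 1 CPM in 2 or more libraries entered limma 3.58.1 (R 4.3.3) on log2(CPM + 1), which understates the change of low genes, with 6 group means over 12 libraries and Benjamini-Hochberg adjustment over 10899 genes. The median of ratios was taken over genes that reached 5 CPM in every library, and edgeR 4.0.16 used the recovered reads. Replicate differences correlated in all 15 pairs of groups (0.47 to 0.74). Even so, the main limma fit left the replicate out, and its counts, SEs and adjusted p-values ignore this pairing. Only results named as coming from the replicate block take it into account. Other settings were a pseudocount of 0.25, no filter, the deposited scaling and each library left out. Transcript lengths and shared words came from GENCODE for 91 of 92 members. Counts at an unadjusted p under 0.05 were taken for members only, with no share of all genes to set beside them. The share of all genes with libraries that did not overlap was taken only for LPS in WT and for KO against WT untreated.

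Members and lists were chosen with earlier results of these data known. The rule for naming was the 4 largest called changes with no overlap in each direction and comparison (2 for the inhibitor and the differences), complex II, the most abundant member per length in each complex, members that failed the filter, and the 2 largest calls of each list; the other genes named were chosen after their values were seen. The values of 1 member are not reported here.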

Additional observations from a re-analysis of the deposited data

How the results depend on the processing

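The LPS counts depended on the scaling and the block. Higher and lower members numbered 7 and 2 in WT, 10 and 3 in KO and 29 and 2 under the inhibitor with the median of ratios, and 10 and 2, 11 and 3, and 32 and 2 with edgeR. The replicate block gave 1 and 51, 0 and 51, and 5 and 15. The median of ratios with the replicate block, chosen after seeing the data, gave 39 and 3, 45 and 3, and 67 and 2, where 35% and 40.2%, 35.3% and 40.4%, and 35.2% and 39.8% of all genes were called. Leaving out 1 library of the compared groups gave 10 to 16 lower in WT, 7 to 13 in KO and 5 to 8 under the inhibitor, where 0 to 3 were higher; without a library of the other groups the lower counts were 18 to 23, 10 to 17 and 6. For KO against WT untreated the block gave 4 and 10, with the median of ratios 5 and 8, while no filter gave 2 lower and the deposited scaling 8. After LPS the block gave 9 and 7, also with the median of ratios, and the deposited scaling 3 lower. With the inhibitor after LPS the block gave 8 higher, or 6 with the median of ratios, and for the difference of LPS changes with the inhibitor 4 or 2. Shares of all genes are not given for the fits with a library left out or with no filter. Nor are they given for the block with the median of ratios outside the LPS comparisons. How far those member counts move with the counts of all genes was not tested. Most members turned above 0 with the median of ratios, 69 of 85 in WT against 6 before. In complex II the values that did so with the median of ratios, with or without the block, and with edgeR were Sdhb in KO (0.12, 0.14) and under the inhibitor (0.16, 0.18), Sdhc in WT (0.081, 0.10), KO (0.10, 0.12) and under the inhibitor (0.15, 0.17), and Sdhd in WT (0.11, 0.14), KO (0.085, 0.10) and under the inhibitor (0.17, 0.20). Sdha under the inhibitor was at 0.00066 with edgeR. Sdhd under the inhibitor ranged from -0.19 to 0.01 with 1 library left out, and was above 0 without WT_JAKi replicate 1 (0.0046) or WT_LPS_JAKi replicate 2 (0.013). The cause was not tested. With 2 libraries a group, small changes in low genes such as Cox6a2 cannot be resolved.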
